A study of Mus musculus with 31 samples.

Results

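The insulin-like growth factor (IGF) system was followed through embryonic mouse olfactory and trigeminal nerves with 9 genes: the ligand Igf1, its receptor Igf1r, the binding protein genes Igfbp2, Igfbp3, Igfbp4, Igfbp5 and Igfbp6, the related gene Igfbp7 and the binding protein-like gene Igfbpl1. They were picked by symbol, with earlier results of these data known, and are 9 of the 47729 genes in the count table. Every one of the 9 passed the filter on low counts. Igf2 and the other pathway genes are given after them.

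The series holds 31 RNA-seq libraries from pieces of nerve cut by laser from frozen sections of mouse embryos, and asks how olfactory ensheathing cells, the glia of the olfactory nerve, differ from Schwann cells. All embryos carried the Sox10:H2BVenus transgene, in which a bacterial artificial chromosome with Sox10 sequences drives a nuclear fluorescent protein in neural crest-derived glia, and the fluorescence guided the cutting. No treatment and no other allele is named. Each library pooled tissue from several sections, and a piece holds glia, axons and whatever lies between them.

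There were 7 groups. Olfactory nerve beneath the olfactory epithelium was taken at E11.5 (n = 4), E13.5 (n = 7) and E16.5 (n = 4). The olfactory nerve layer (ONL), where the axons reach the olfactory bulb, was taken at E13.5 (n = 5) and at E16.5 as an outer part far from the bulb (n = 4) and an inner part next to it (n = 4). The study reports that this cut did not separate the molecularly different inner and outer ensheathing cells, and that inner pieces held bulb tissue. Branches of the trigeminal nerve, which carry Schwann cells, were taken at E16.5 (n = 3). At E11.5 and E13.5 there were more pieces than embryos, so some pieces shared an embryo, and p-values over those pieces are too small. At E16.5 each olfactory region came from 4 embryos, and the trigeminal pieces, cut on the same sections, from 3. Pieces of different E16.5 regions could thus share an embryo, and the labels do not say which.

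The labels of the early libraries need care. Group means computed from the same counts accompany the study, and each is the equal-weight mean of a set of libraries. For 10 of the 31 libraries that set differs from the label. By these means the libraries labelled E11.5_ON1 to E11.5_ON4 and E13.5_ON1 are E13.5 ONL, E13.5_ON2 to E13.5_ON7 and E13.5_ONL1 are E13.5 nerve, and E13.5_ONL2 to E13.5_ONL5 are E11.5 nerve. This grouping is used below, and the result of grouping by label stands beside each early comparison. The summed CPM (counts scaled to a common library size) of 7 olfactory bulb neuron markers were 1533 to 2198 in the 5 libraries so placed in the E13.5 ONL, against 53.0 to 75.4 in E13.5 nerve and 47.1 to 77.4 in E11.5 nerve.

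Libraries held 3512627 to 36705535 counts. The E16.5 olfactory libraries were even, at 13379107 to 16800784, and the trigeminal libraries deeper, at 30221586 to 32508725. Markers fixed for each cell type gave the makeup of the pieces. The summed CPM of 7 glial markers ran from 18686 to 32884 in outer ONL and from 20777 to 26089 in inner ONL, but from 1670 to 3922 in E16.5 olfactory nerve and from 1489 to 1756 in trigeminal nerve. The 5 Schwann cell markers summed to 2567 to 3823 in trigeminal nerve and to at most 492 elsewhere. The 9 mesenchyme markers summed to 9553 to 16190.2 in E16.5 olfactory nerve and 23488 to 27627 in trigeminal nerve, against 5732 to 11009.9 in outer ONL and 921 to 2168 in inner ONL. The 7 olfactory bulb neuron markers summed to 703 to 1613 in inner ONL against 10.5 to 243 in outer ONL. The 9 olfactory neuron markers summed to 1672 to 3539 in inner ONL against 136 to 913 in outer ONL. The part of these cells in differences between inner and outer ONL was not tested.

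As background, IGF-I and IGF-II are secreted growth factors that act through the receptor tyrosine kinase encoded by Igf1r, which signals through insulin receptor substrates to the PI3K-AKT and mTOR pathways and promotes growth, survival and myelination by glia. Most IGF outside cells is held by binding proteins, which keep it from the receptor or release it locally when proteases such as pappalysin cut them, and several also act without IGF. IGFBP-6 prefers IGF-II, IGFBP-7 binds IGF weakly, and the product of Igfbpl1 shares only part of the family's structure.

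Levels are CPM scaled by TMM, a method that corrects for a few genes taking a large share of a library. Differences are log2 fold changes with their standard errors from edgeR's quasi-likelihood test, and p-values are adjusted by Benjamini-Hochberg over the 19332 genes tested. A gene is called at an adjusted p under 0.05. The plot of levels by library shows the 9 genes in all 7 groups.

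**Figure D1:**
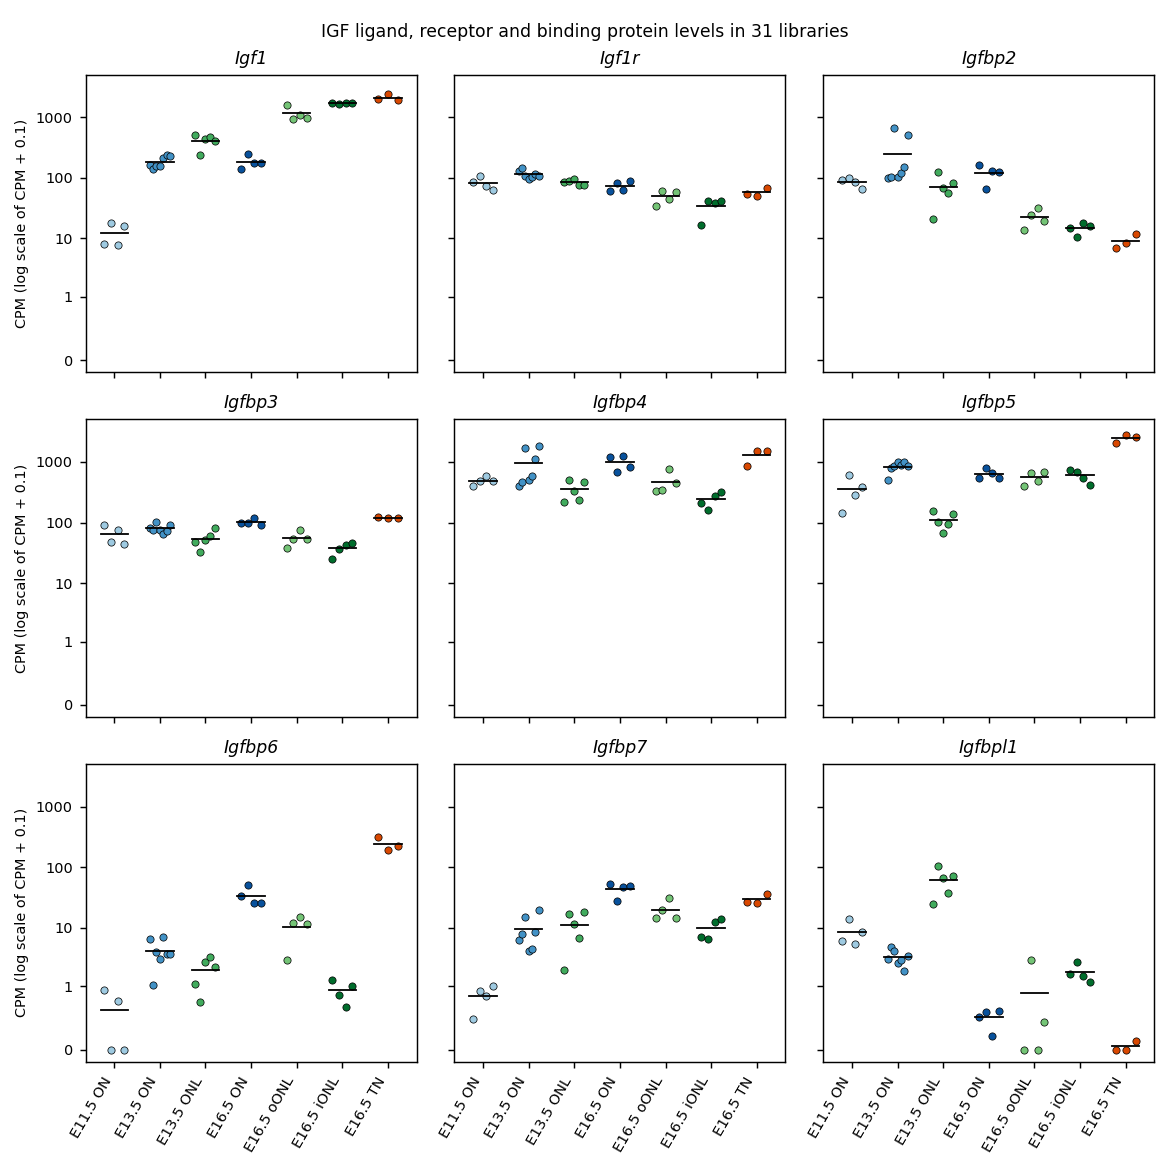
CPM of each gene (vertical axis, log scale of CPM + 0.1) in each of 31 libraries (points), by group (horizontal axis), with a bar at the group mean. Igf1 climbs from 12.4 CPM in E11.5 nerve to above 1000 in the ONL and trigeminal nerve at E16.5, Igfbp6 is highest in trigeminal nerve, and Igfbpl1 is highest in the E13.5 ONL.

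At E16.5 the outer ONL held more Igf1 and less of several binding proteins than the olfactory nerve. Of the 9 genes 4 were called, 1 higher and 3 lower, beside 22.0% of all genes tested. The median log2 change of the 9 was -0.88, against 0.01 for all genes. Replicate numbers were taken to pair these 2 groups. This pairing was chosen from correlations in these same counts, not from the labels. Those of like numbers (0.25 to 0.53) overlapped those of unlike numbers (-0.41 to 0.38), so calls of the paired fit are provisional. In a fit of them with the number as a block 7 of the 8 genes tested were called, beside 31.4% of all genes. Igfbpl1 was too low to be tested there. This paired fit added Igf1r, Igfbp4 and Igfbp7 as lower in the ONL. Between outer ONL and trigeminal nerve 6 of 9 were called, 1 higher and 5 lower in the ONL, beside 25.8% of all genes, and the median change was -0.87 against 0.01. Between olfactory and trigeminal nerve 4 of 9 were called, 1 higher and 3 lower in the olfactory nerve, beside 23.6%, with medians of -0.25 and -0.01. Inner and outer ONL differed in 1 of 9 beside 14.2%. A fit on E16.5 libraries only, in which the spread was estimated from those 15 libraries, called 4 of 9 there beside 17.6%.

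From E11.5 to E13.5 nerve 7 of 9 were called, 6 higher and 1 lower, beside 36.6% of all genes, and the median change of the 9 was 1.23 against 0.05. By label only 3 of 9 were called, beside 17.4%. From E13.5 to E16.5 nerve 4 of 9 were called, 2 in each direction, beside 28.8%, and by label 4 beside 25.0%. In the ONL 6 of 9 changed from E13.5 to the outer ONL of E16.5, 3 in each direction, beside 41.9%, and by label 6 beside 35.1%. The E13.5 ONL differed from E13.5 nerve in 6 of 9, 2 higher and 4 lower, beside 31.6%, and by label in 2 of 9 beside 17.6%. The difference between ONL and nerve itself changed from E13.5 to E16.5 in 2 of 9, beside 12.4%, and by label in 1 of 9 beside 12.6%. In all 5 of these comparisons pieces shared embryos, so that the p-values are too small.

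**Figure D2:**
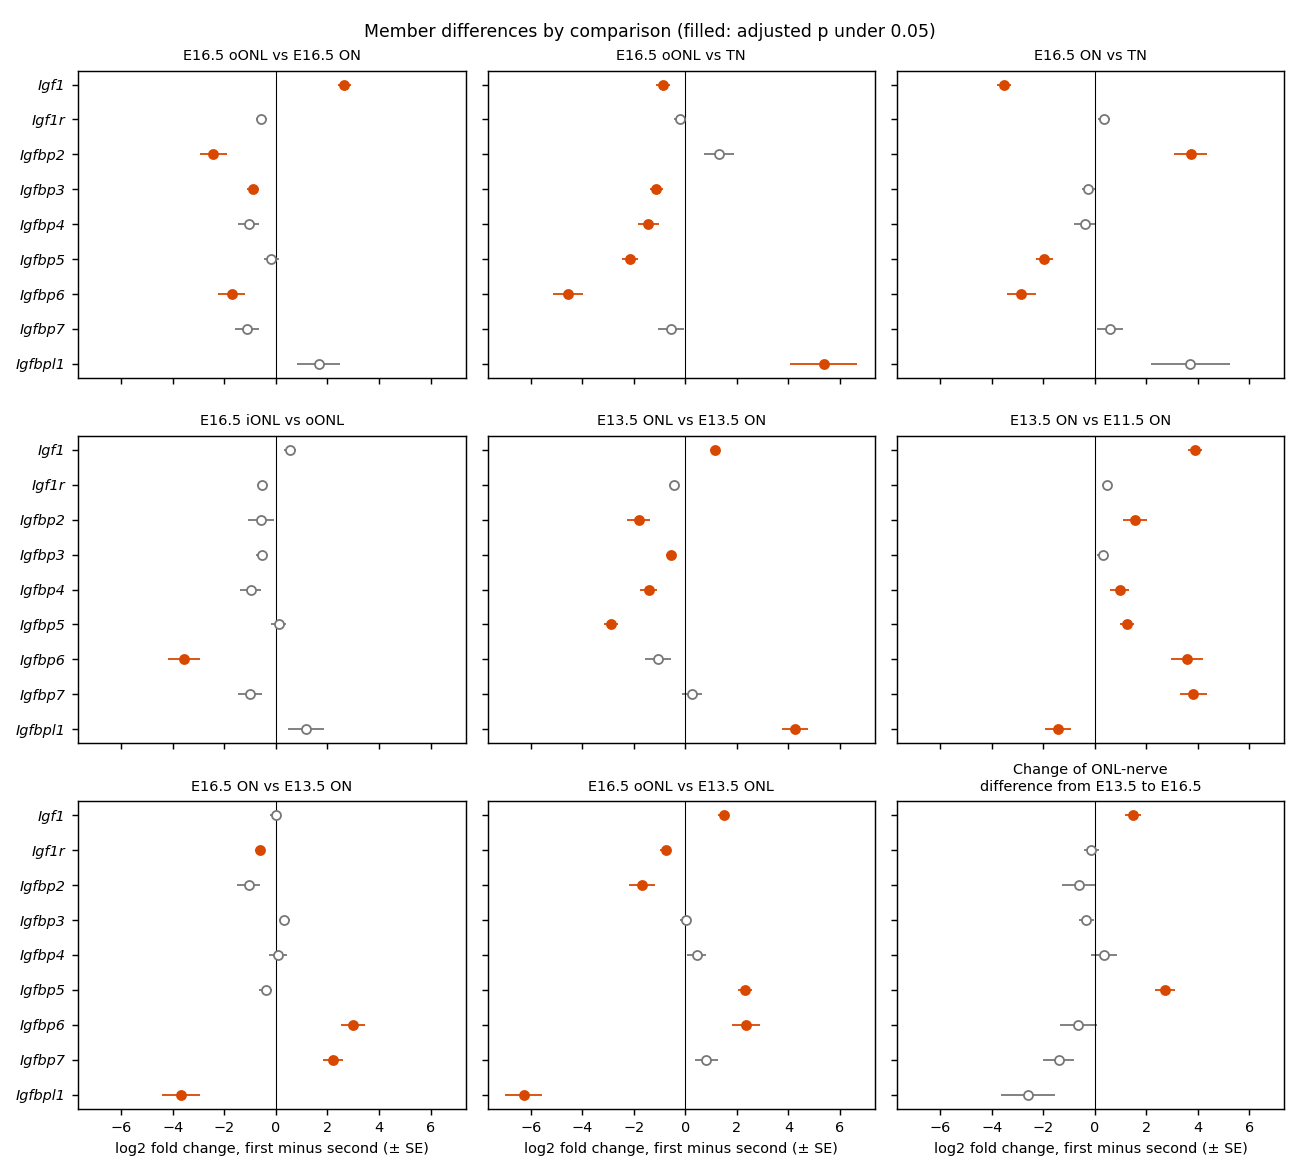
Log2 fold change of each of the 9 genes (horizontal axis, first group minus second, bars ± SE) in the 9 comparisons (panels). Filled points are called at an adjusted p under 0.05. Igf1 is above 0 in outer ONL against olfactory nerve (2.64) and below 0 in both comparisons with trigeminal nerve as the second group, and the value of Igfbpl1 against trigeminal nerve is a fitted value against a group with 0 to 1 counts and is not a measure of size.

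Igf1 encodes IGF-I (chromosome 10, 87858265 to 87937042, plus strand, mm10). In E16.5 olfactory nerve its CPM were 141, 246, 175 and 172, a mean of 184 ± 44.6 (SD, n = 4). In outer ONL they were 1598, 945, 1083 and 970.2, a mean of 1149 ± 305 (n = 4). The groups did not overlap. Igf1 was 6.25-fold higher in outer ONL, a log2 change of 2.64 ± 0.25 (SE), adjusted p = 4.74e-09. The glial marker sums given above were also higher in outer ONL than in olfactory nerve, and their part in the difference was not tested. In bulk tissue, fewer cells of a type and less RNA per cell cannot be told apart.

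Inner ONL held 1725, 1611, 1689 and 1696 CPM of Igf1, all above the 4 outer ONL libraries, yet the difference of 0.55 ± 0.24 was not called (adjusted p = 0.145). The fit on E16.5 libraries only called it at 0.60 ± 0.17 (adjusted p = 0.0209). Trigeminal nerve was highest of all groups, at 2008, 2400.0 and 1885 CPM. Its glial marker sum, 1489 to 1756 CPM, was lower than in every ONL library, while its Schwann cell and mesenchyme marker sums, 2567 to 3823 and 23488 to 27627 CPM, were the highest of all groups, and the part of these cells in the level of Igf1 was not tested. Outer ONL lay below trigeminal nerve by 0.87 ± 0.26 on the log2 scale (adjusted p = 0.0114), a call that was lost without the second trigeminal library (-0.76, adjusted p = 0.0618) and with the early libraries grouped by label (adjusted p = 0.435). Olfactory nerve lay 11.4-fold below trigeminal nerve, a log2 change of -3.51 ± 0.27 (adjusted p = 7.97e-11).

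Igf1 was scarce in E11.5 nerve, at 8.13, 17.8, 7.68 and 16.1 CPM. In E13.5 nerve it ran from 142 to 241 CPM, with a median of 164 (n = 7). No library of one group reached the other. Igf1 rose 14.8-fold from E11.5 to E13.5, a log2 change of 3.89 ± 0.26 (adjusted p = 1.73e-12), and then stayed at the same mean, with a change of -0.01 ± 0.21 from E13.5 to E16.5 nerve (adjusted p = 0.989). The median glial marker sum took another course, at 777, 616 and 2091 CPM in E11.5, E13.5 and E16.5 nerve, and its part was not tested. E13.5 ONL held 500.0, 239, 436, 477 and 403 CPM, more than E13.5 nerve by 1.15 ± 0.20 (adjusted p = 2.55e-05), with a single library at the level of the highest nerve library. From E13.5 ONL to outer ONL Igf1 rose again by 1.48 ± 0.23 (adjusted p = 4.38e-06). Since the nerve stayed level, the excess in the ONL grew by 1.49 ± 0.31 on the log2 scale between stages (adjusted p = 0.00145), from a difference of 1.15 to one of 2.64. By label the rise in the ONL was 4.40 and the growth 4.597. These pieces shared embryos, and the p-values are too small.

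The grouping turned the sign of Igf1 in both comparisons among early groups. By label, E13.5 nerve had -0.97 ± 0.58 relative to E11.5 nerve (adjusted p = 0.269), and E13.5 ONL had -1.95 ± 0.59 relative to E13.5 nerve (adjusted p = 0.0242), both opposite in sign to the values above. In the label group of E13.5 ONL, 1 library held 224 CPM and the other 4 held 7.68 to 17.8. The plot of both groupings shows the same 16 libraries sorted in both ways.

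**Figure D3:**
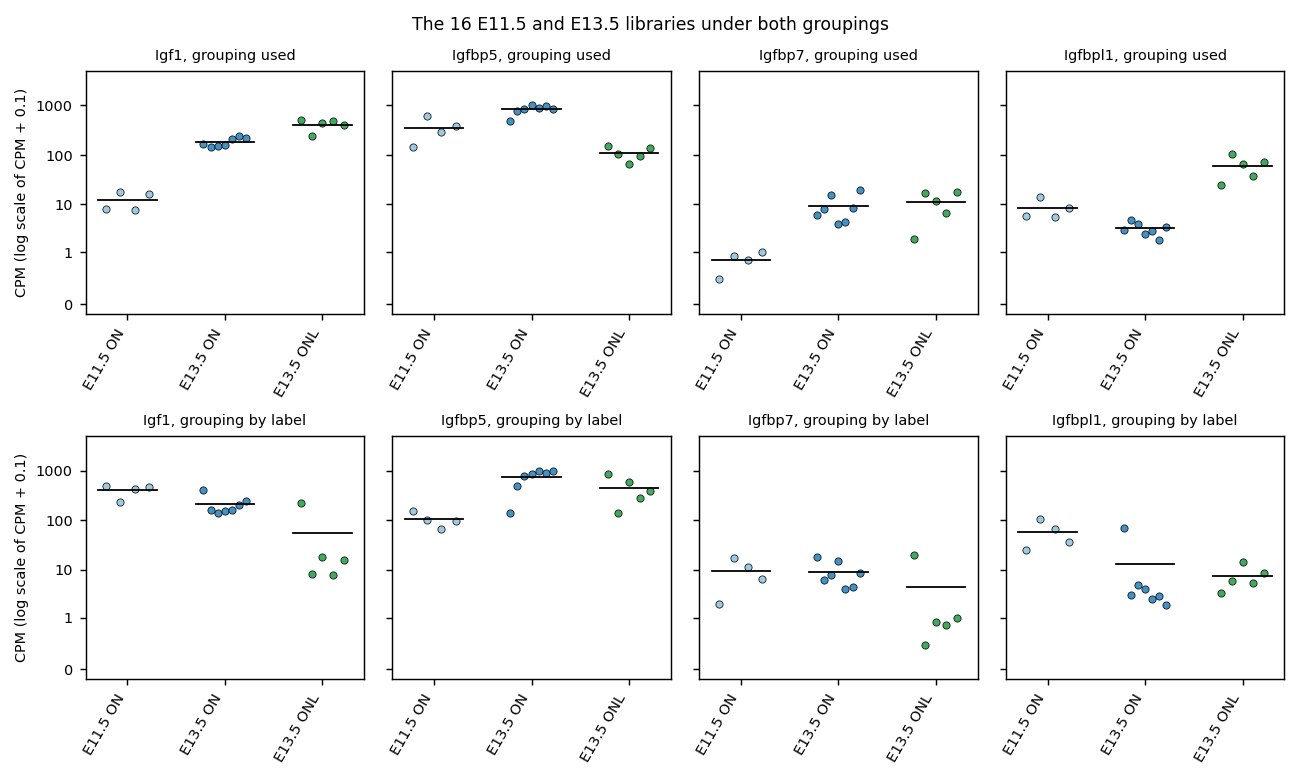
CPM (vertical axis, log scale of CPM + 0.1) of Igf1, Igfbp5, Igfbp7 and Igfbpl1 in the 16 E11.5 and E13.5 libraries (points, with a bar at the group mean), in the grouping used here (top) and by label (bottom). In the top row the 4 libraries of E11.5 nerve lie at 7.68 to 17.8 CPM of Igf1, and in the bottom row those libraries share a group with one at 224 CPM.

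Igf1r encodes the receptor (chromosome 7, 67952827 to 68233668, plus strand, mm10) and varied little. Its group means spanned 34.4 to 114 CPM. In E13.5 nerve it ran from 96.9 to 145 CPM with a median of 106 (n = 7), above all 5 libraries of E13.5 ONL, which held 84.9, 86.9, 96.2, 76.2 and 76.2 CPM. That difference of -0.44 ± 0.18 was not called (adjusted p = 0.0627). E16.5 olfactory nerve held 61.3, 82.4, 62.3 and 89.4 CPM and outer ONL 34.5, 59.99, 44.97 and 58.6, with no overlap between them. The difference of -0.58 ± 0.22 just missed the threshold (adjusted p = 0.0556) and passed it in the paired fit, at -0.61 ± 0.11 (adjusted p = 0.00413).

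Receptor mRNA was lower at the later stage in both olfactory regions. From E13.5 to E16.5 Igf1r fell in the nerve by 0.63 on the log2 scale (SE 0.20, adjusted p = 0.0155) and in the ONL by 0.76 (SE 0.21, adjusted p = 0.00379). The nerve call was lost without the first E16.5 library (adjusted p = 0.0664) and without the third (adjusted p = 0.107). By label the falls were 0.57 (adjusted p = 0.0456) and 0.81 (adjusted p = 0.00571). Shared embryos make these p-values too small. The fall in the ONL ran opposite to the rise of Igf1 there. Trigeminal nerve held 53.5, 50.8 and 67.5 CPM and overlapped both E16.5 olfactory nerve and outer ONL. Inner ONL held 16.4, 41.3, 38.78 and 41.05 CPM, with 1 library well below the rest.

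Binding protein genes were compared with each other per kilobase of exon, since a long transcript yields more reads. The length was that of all annotated exons of a gene together, 9904 bases for Igf1 and 1209 for Igfbp7, and not that of the transcript expressed. Summed over Igfbp2 to Igfbp7, the level was highest in trigeminal nerve at 982 ± 93.0 CPM per kb (n = 3) and lowest in E13.5 ONL at 164 ± 53.6 (n = 5). Igf1 on the same scale was 212 ± 27.1 in trigeminal nerve. In inner ONL the summed binding proteins stood at 183 ± 8.27 CPM per kb and Igf1 at 169.7 ± 4.94, nearly level, whereas in E16.5 olfactory nerve they stood at 493 ± 73.4 and 18.6 ± 4.50. Without the division by length, inner ONL held a mean of 1680 CPM of Igf1 against 599 of Igfbp5 and 240 of Igfbp4. The near equality thus rests on the lengths used. RNA levels per kb do not give protein amounts.

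The mix differed as much as the sum. Igfbp4 was the main binding protein of E16.5 olfactory nerve, at 44.8 ± 6.44% of the sum, with Igfbp5 at 21.9 ± 6.67%. In inner ONL Igfbp5 made up 54.4 ± 12.6% and Igfbp4 29.7 ± 8.88%. Igfbp5 exceeded Igfbp4 in 3 of 4 inner libraries, and in the fourth Igfbp4 was at 40.5% and Igfbp5 at 39.2%. Igfbp2 made up 22.3 ± 9.11% in E13.5 nerve and 0.495 ± 0.107% in trigeminal nerve. Igfbp6 made up 22.7 ± 8.21% in trigeminal nerve and at most 10.7% in any olfactory library. These shares are descriptions over libraries.

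**Figure D4:**
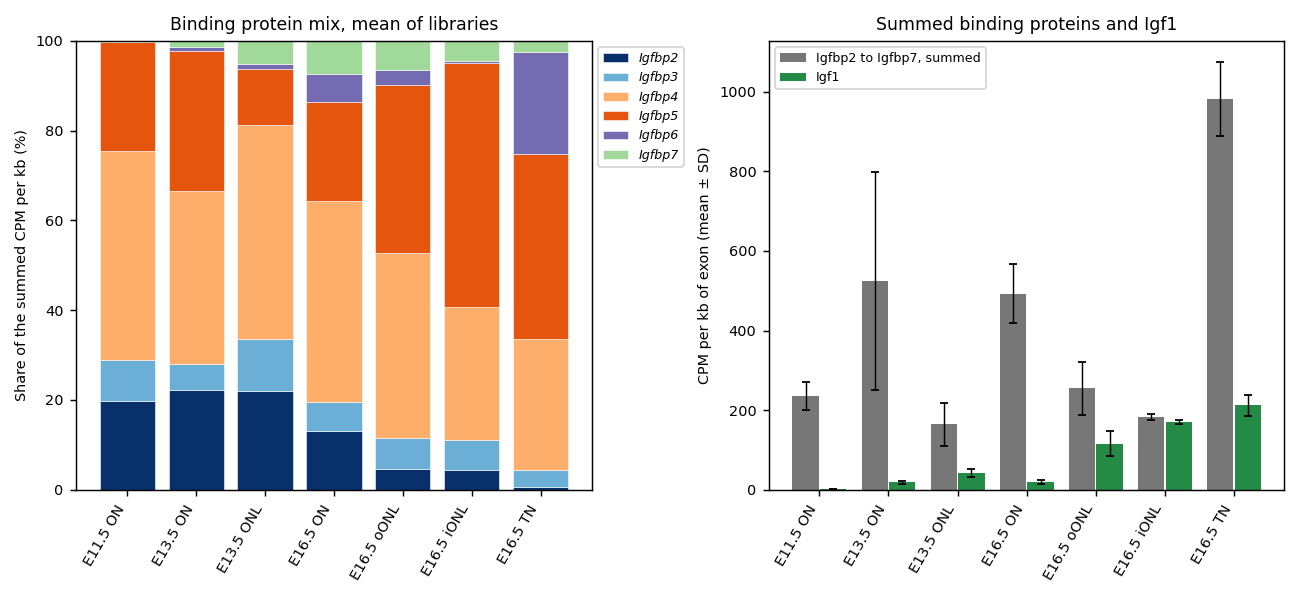
Left, mean share (vertical axis, percent) of each binding protein gene in the summed CPM per kb of Igfbp2 to Igfbp7, by group. Right, that sum and Igf1 in CPM per kb of exon (mean, bars ± SD); Igf1 comes closest to the sum in inner ONL, at 169.7 against 183.

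Upstream sequence is shown for Igfbp2, Igfbp4 and Igfbp6, 3 of the genes called lower in outer ONL than in olfactory nerve in the paired fit. Igf1r, Igfbp3 and Igfbp7 were called lower there too, and their sequences are not shown. The sequences are the 250 bases before a RefSeq start (GRCm38.p6, the assembly that mm10 names), read 5′ to 3′ on the plus strand. The letters of 3 short motifs were searched on both strands, TATAAA, known as the TATA box, CCAAT, a common proximal motif, and GGGCGG, the GC box, and their matches are in capitals.
Igfbp2, chr1:72824230-72824479: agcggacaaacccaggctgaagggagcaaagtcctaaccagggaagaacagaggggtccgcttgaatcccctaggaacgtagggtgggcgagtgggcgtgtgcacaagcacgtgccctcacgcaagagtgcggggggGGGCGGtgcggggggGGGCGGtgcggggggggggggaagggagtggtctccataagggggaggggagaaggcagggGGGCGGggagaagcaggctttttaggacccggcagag
Igfbp4, chr11:99040994-99041243: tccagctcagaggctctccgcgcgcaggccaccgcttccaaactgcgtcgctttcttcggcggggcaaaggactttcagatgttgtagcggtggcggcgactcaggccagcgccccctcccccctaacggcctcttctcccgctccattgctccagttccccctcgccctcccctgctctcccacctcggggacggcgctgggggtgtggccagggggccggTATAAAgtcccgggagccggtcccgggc
Igfbp6, chr15:102143936-102144185: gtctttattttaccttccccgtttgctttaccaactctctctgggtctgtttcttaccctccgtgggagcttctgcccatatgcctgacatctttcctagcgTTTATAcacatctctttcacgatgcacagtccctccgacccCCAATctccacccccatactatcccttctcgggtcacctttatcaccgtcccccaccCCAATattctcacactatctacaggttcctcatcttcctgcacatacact

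The 3 windows held different matches. Igfbp2 had 3 GC boxes in the window shown, the first of its 2 RefSeq windows, and no match in the second, chr1:72825137-72825386. Igfbp4 had a TATA box whose last base lies 23 bases before the start, and Igfbp6 2 CCAAT boxes and a TATA match on the opposite strand. Of the genes called lower but not shown, Igf1r had 2 GC boxes, Igfbp7 had 4 and Igfbp3 had no match. Of 32851 RefSeq promoter windows of this length, 12.4% held TATAAA, 33.8% held CCAAT and 32.7% held GGGCGG. A match is a description of the letters and says nothing of what binds there.

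Igfbp2 (chromosome 1, 72824503 to 72852474, plus strand, mm10) was higher in the olfactory nerve than in the other E16.5 tissues. The E16.5 nerve held 160.4, 66.3, 128 and 125 CPM, outer ONL 13.9, 23.9, 31.8 and 19.5, and trigeminal nerve 6.89, 8.37 and 11.9. None of these groups overlapped. Igfbp2 was 5.37-fold lower in outer ONL than in olfactory nerve, a log2 change of -2.43 ± 0.53 (adjusted p = 0.000961). It was 13.2-fold higher in olfactory than in trigeminal nerve, a log2 change of 3.72 ± 0.63 (adjusted p = 3.99e-05). Inner ONL, at 10.6 to 17.8 CPM, overlapped outer ONL. The summed CPM of 7 olfactory epithelium markers was highest in the nerve as well, at 174 to 573 in E16.5 nerve against 10.4 to 16.1 in outer ONL and 19.5 to 31.1 in trigeminal nerve. Within the nerve the first library was highest and the second lowest for both. The summed CPM of 7 markers of mural cells, which lie along vessels, had the same highest and lowest library, at 2895 and 818. The part of these cells in the difference was not tested.

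In E13.5 nerve Igfbp2 ran from 100.2 to 672 CPM with a median of 122 (n = 7). A pair of libraries stood apart, those labelled E13.5_ON4 with 672 CPM and E13.5_ONL1 with 503, while the other 5 held 100.2 to 150.2. The olfactory epithelium marker sum was highest of the group in E13.5_ON4 (563 CPM) and lowest in E13.5_ONL1 (296 CPM). E11.5 nerve held 91.7, 99.1, 84.3 and 64.6 CPM and E13.5 ONL 21.03, 127, 66.8, 55.5 and 83.0. Igfbp2 was called lower in E13.5 ONL than in nerve by 1.81 on the log2 scale (SE 0.44, adjusted p = 0.0016) and higher in E13.5 than in E11.5 nerve by 1.56 (SE 0.47, adjusted p = 0.00961). Without those 2 libraries the values were -0.73 (adjusted p = 0.0635) and 0.45 (adjusted p = 0.285), so both calls rested on them. By label neither was called, at -0.18 (adjusted p = 0.845) and 1.49 (adjusted p = 0.0874). From E13.5 ONL to outer ONL Igfbp2 fell by 1.68 (SE 0.50, adjusted p = 0.00754), with overlap, and by label by 2.92 (adjusted p = 0.00125). All these p-values are too small where pieces shared an embryo.

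Igfbp3 (chromosome 11, 7206086 to 7213923, minus strand, mm10), the main IGF carrier of blood in the adult, differed less. E16.5 olfactory nerve held 99.4, 97.4, 118 and 90.4 CPM and outer ONL 37.7, 53.6, 74.2 and 53.8, without overlap. The difference of -0.88 ± 0.23 was called (adjusted p = 0.00599). Trigeminal nerve held 122, 119 and 119.8 CPM, above every other library of the series, and exceeded outer ONL by 1.13 on the log2 scale (SE 0.25, adjusted p = 0.000849). Trigeminal and olfactory nerve were not called different, and their order depended on the scaling. Scaled by total count alone, the means were 105.2 CPM in trigeminal and 105.8 in E16.5 olfactory nerve. At E13.5 the ONL held 47.9, 32.5, 51.3, 60.3 and 80.1 CPM and the nerve 64.9 to 103 with a median of 75.9. The change of -0.56 ± 0.20 passed the threshold (adjusted p = 0.0282) but not once any of 5 single libraries was left out, nor by label (-0.16, adjusted p = 0.59). By label Igfbp3 was instead higher in E13.5 than in E11.5 nerve, at 0.71 ± 0.21 (adjusted p = 0.0166), where the grouping used here gave 0.31 ± 0.21 (adjusted p = 0.257). Shared embryos make the early p-values too small.

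Igfbp4 (chromosome 11, 99041244 to 99054392, plus strand, mm10), whose product is a substrate of pappalysin, was abundant everywhere. E16.5 olfactory nerve held 1188, 679, 1257 and 829.6 CPM and outer ONL 328, 344, 772 and 448, with a single outer library inside the range of the nerve. The difference of -1.06 ± 0.40 missed the threshold (adjusted p = 0.0539), and the paired fit called it at -1.13 ± 0.18 (adjusted p = 0.00351). The outer library with 772 CPM was also the one with the highest mesenchyme marker sum of the 4, 11009.9 CPM against 5732 to 8391. It was highest of the 4 as well in the meninges (591 CPM), endothelium (875), mural cell (547), Schwann cell (338) and macrophage (358) sums. The part of these cells in its level was not tested. Trigeminal nerve held 849, 1477 and 1505 CPM, above all outer ONL libraries, a log2 difference of -1.43 ± 0.42 for outer ONL (adjusted p = 0.0115). Inner ONL was lowest of all groups, at 206, 161, 273 and 318 CPM, all below outer ONL, and the difference of -0.98 ± 0.40 was not called (adjusted p = 0.108) except in the fit on E16.5 libraries only (-0.94, adjusted p = 0.0358).

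The same 2 libraries of E13.5 nerve stood high for Igfbp4, at 1699 and 1825 CPM, in a group that ran from 395 to 1825 with a median of 591 (n = 7). E11.5 nerve held 399, 474, 576 and 482 CPM and E13.5 ONL 215, 499, 329.8, 239 and 467. The call from E11.5 to E13.5 nerve, 0.96 ± 0.36 (adjusted p = 0.0367), was lost without them (0.35, adjusted p = 0.396) and without any of 6 single libraries. The call for E13.5 ONL against nerve, -1.43 ± 0.34 (adjusted p = 0.00147), held at -0.84 (adjusted p = 0.0276). By label the first was 1.22 (adjusted p = 0.0489) and the second 0.0060 (adjusted p = 0.994). Both fits take pieces as independent, and the p-values are too small. The mesenchyme marker sums of these 2 libraries, 3704 and 4166 CPM, lay within the 3547 to 6417 of the other 5.

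Igfbp5 (chromosome 1, 72857932 to 72874884, minus strand, mm10) lies next to Igfbp2, with the ends of both genes facing each other, and followed another course. It was highest in trigeminal nerve, at 2021, 2748 and 2559.7 CPM. E16.5 olfactory nerve held 540.3, 799, 648 and 535, outer ONL 393, 662, 485 and 682, and inner ONL 736, 691, 551 and 419, and these 3 groups overlapped. Outer ONL was lower than trigeminal nerve by 2.14 on the log2 scale (SE 0.32, adjusted p = 4.46e-06) and olfactory nerve by 1.95 (SE 0.32, adjusted p = 2.08e-05). Outer ONL and olfactory nerve differed by -0.18, with a 95% interval of -0.75 to 0.39 (adjusted p = 0.727).

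At E13.5 the picture was different. The ONL held 154, 103, 65.9, 94.8 and 141 CPM of Igfbp5 and the nerve 494 to 999 with a median of 850.4 (n = 7), with no overlap. The ONL was 7.49-fold lower, a log2 change of -2.90 ± 0.27 (adjusted p = 7.57e-10). From E13.5 ONL to outer ONL Igfbp5 rose 4.99-fold, by 2.32 ± 0.28 (adjusted p = 1.16e-07), while the nerve changed by -0.40 ± 0.26 (adjusted p = 0.261). The difference between ONL and nerve thus changed by 2.72 ± 0.39 between stages (adjusted p = 2.04e-05). E11.5 nerve held 143, 602, 287 and 385 CPM, less than E13.5 nerve by 1.23 (SE 0.27, adjusted p = 0.000634). Grouped by label the 4 values were -0.70 (adjusted p = 0.173), 0.30 (adjusted p = 0.589), 0.52 (adjusted p = 0.608) and 2.82 (adjusted p = 0.000133), in the order ONL against nerve, ONL over time, change of the difference and nerve from E11.5. Pieces that shared an embryo make all of these p-values too small.

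Igfbp6 (chromosome 15, 102144362 to 102149511, plus strand, mm10) ranged from 2 libraries with no count to 312 CPM. In trigeminal nerve it stood at 312, 192 and 224 CPM, in E16.5 olfactory nerve at 33.4, 50.3, 25.2 and 25.9, in outer ONL at 2.92, 11.8, 14.9 and 11.4, and in inner ONL at 1.28, 0.677, 0.393 and 1.02. No 2 of these 4 groups overlapped. Outer ONL was lower than trigeminal nerve by 4.56 on the log2 scale (SE 0.59, adjusted p = 5.29e-07) and olfactory nerve by 2.85 (SE 0.55, adjusted p = 0.000231). Inner ONL was 11.9-fold lower than outer ONL, a log2 change of -3.57 ± 0.64 (adjusted p = 0.000144). Outer ONL was lower than olfactory nerve by 1.72 (SE 0.52, adjusted p = 0.0162), a call lost without the first outer ONL library (-1.42, adjusted p = 0.0648), without the second nerve library (-1.46, adjusted p = 0.0563) and with the early libraries grouped by label (adjusted p = 0.111). The mesenchyme and meninges marker sums were also highest in trigeminal nerve and lowest in inner ONL, from 23488 to 27627 and 1188 to 1398 CPM in trigeminal nerve down to 921 to 2168 and 65.4 to 202 in inner ONL. Among the E16.5 groups so were the Schwann cell sums (2567 to 3823 down to 124 to 138 CPM) and the median endothelium sums (953 down to 371 CPM). Within trigeminal nerve the Schwann cell sum, like Igfbp6, was highest in the first library and lowest in the second. The mesenchyme sum was highest in the second. The part of these cells was not tested.

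Igfbp6 appeared over time. In E11.5 nerve the 4 libraries held 32, 0, 13 and 0 counts, or at most 0.848 CPM. In E13.5 nerve it ran from 1.04 to 6.96 CPM with a median of 3.65, and by E16.5 all 4 nerve libraries were above 25. The rise from E11.5 to E13.5 was 3.58 ± 0.62 (adjusted p = 3.86e-05) and grew to 4.76 without the library labelled E13.5_ONL2, which held the 32 counts. The rise from E13.5 to E16.5 nerve was 2.99 ± 0.46 (adjusted p = 1.25e-05). E13.5 ONL held 1.11, 0.504, 2.67, 3.22 and 2.22 CPM, and outer ONL was higher by 2.34 ± 0.55 (adjusted p = 0.000846). By label the first rise was 1.03 (adjusted p = 0.383), the others were called at 3.08 and 3.62, and E13.5 ONL was in addition called lower than E13.5 nerve at -2.25 ± 0.71 (adjusted p = 0.0303), where the grouping used here gave -1.07 ± 0.51 (adjusted p = 0.114). As above, the p-values of the early pieces are too small.

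Igfbp7 (chromosome 5, 77349240 to 77408041, minus strand, mm10) shares exon bases with Polr2b on the opposite strand, which held 83104 counts over all libraries against 9030 for Igfbp7. Whether counting used strand is not given in the sources used here, so reads of the pair may not be told apart and its values are uncertain. It was near the floor in E11.5 nerve, at 0.212, 0.815, 0.664 and 1.00 CPM. It ran from 4.06 to 19.9 CPM with a median of 7.97 in E13.5 nerve and stood at 52.7, 27.4, 46.8 and 48.9 CPM in E16.5 nerve. The rises were 3.81 ± 0.53 (adjusted p = 1.44e-06) and 2.21 ± 0.40 (adjusted p = 0.000128), with no overlap between stages. By label the first was -0.053 (adjusted p = 0.974) and the second 2.25 (adjusted p = 0.0207). Shared embryos make these p-values too small.

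Outer ONL held 14.4, 19.97, 31.2 and 14.4 CPM of Igfbp7 and inner ONL 7.13, 6.47, 12.2 and 14.0, all below the outer libraries (-1.001 ± 0.47, adjusted p = 0.186, and in the fit on E16.5 libraries only -0.96, adjusted p = 0.0306). Outer ONL differed from olfactory nerve by -1.14 ± 0.47, which was not called (adjusted p = 0.0812) but passed in the paired fit at -1.18 ± 0.28 (adjusted p = 0.0183). Trigeminal nerve, at 27.1, 25.8 and 35.5 CPM, overlapped both. E13.5 ONL, at 1.94, 17.2, 11.51, 6.64 and 17.9 CPM, was not called different from outer ONL (0.81 ± 0.44, adjusted p = 0.147), whereas grouping by label gave 2.22 ± 0.80 (adjusted p = 0.0315), again with p-values that are too small.

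Igfbpl1 (chromosome 4, 45809468 to 45826923, minus strand, mm10), a gene known from developing neurons, was found at a level over 20 CPM only in E13.5 ONL, at 24.9, 104, 65.5, 37.2 and 71.1 CPM. E13.5 nerve held 1.89 to 4.85 CPM with a median of 3.04, and E11.5 nerve 5.93, 14.1, 5.44 and 8.57. Neither nerve group overlapped the ONL or the other. Igfbpl1 was 19.0-fold higher in E13.5 ONL than in nerve, a log2 change of 4.25 ± 0.51 (adjusted p = 7.1e-08). It was lower in E13.5 than in E11.5 nerve by 1.42 (SE 0.50, adjusted p = 0.027), a call lost without any of 3 single libraries, with DESeq2 and by label (adjusted p = 0.0746). By label E13.5 ONL against nerve gave -0.80 ± 0.82 (adjusted p = 0.529). The olfactory bulb neuron marker sums were 1533 to 2198 CPM in E13.5 ONL, 47.1 to 77.4 in E11.5 nerve and 53.0 to 75.4 in E13.5 nerve. The olfactory neuron marker sums were 3182 to 5126, 2881 to 3655 and 1039 to 1956 CPM in the same order. The part of these cells in the level of Igfbpl1 was not tested.

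By E16.5 little Igfbpl1 was left. Olfactory nerve held 4, 5, 1 and 6 counts, outer ONL 0, 45, 0 and 3, trigeminal nerve 0, 0 and 1, and inner ONL 25, 36, 19 and 20, or 1.21 to 2.71 CPM. The floor was set at 3 counts, and counting error alone allows up to 3 counts where none was seen. From E13.5 to E16.5 the log2 change was -3.68 ± 0.74 in the nerve (adjusted p = 0.00035) and -6.27 ± 0.72 from E13.5 ONL to outer ONL (adjusted p = 4.27e-08). Without the second outer ONL library the latter was -9.66 (adjusted p = 7.8e-11), with the other 3 libraries at or under the floor, so its size is not known. By label the changes were -5.72 (adjusted p = 0.00145) and -3.27 (adjusted p = 0.0211). Outer ONL was called higher than trigeminal nerve (adjusted p = 0.00244), a call made by that same library, since without it the adjusted p was 0.352, and by label it was 0.0591. No fold is given for it. That library also had the highest olfactory bulb neuron marker sum of the 4, 243 CPM against 10.5, 46.0 and 157. Its olfactory neuron marker sum was highest too, 913 CPM against 136, 156 and 549. In inner ONL, where Igfbpl1 was at 1.21 to 2.71 CPM, these sums were 703 to 1613 and 1672 to 3539 CPM. The part of these cells was not tested.

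For each gene the 3 genes with the most similar pattern were found by Pearson correlation of log2(CPM + 1) over the 31 libraries, among genes with a mean of at least 10 CPM. These are descriptions over libraries that share groups, and nothing is read from them about function. Igf1 was closest to Reep3 (r = 0.94), Sema5b (0.94) and Acat1 (0.92), and Igf1r to Ythdc1 (0.93), Foxc1 (0.92) and Trim24 (0.91). Igfbp2 was closest to Cebpg (0.90), Hs3st3b1 (0.89) and Nhlh1 (0.89), and Igfbp3 to Pdlim1 (0.90), Sfrp2 (0.89) and S100a10 (0.88). The 2 highest values belonged to Igfbp4 with Cd248 (0.97), which encodes a surface protein of pericytes and fibroblasts, and to Igfbp6 with Sostdc1 (0.96). Igfbp4 was next to P3h4 (0.92) and Ephb4 (0.90), and Igfbp6 to Bace2 (0.96) and Sparc (0.96). Igfbp5 was closest to Alpl (0.89), Capn6 (0.88) and Adamts15 (0.84), Igfbp7 to Ifitm3 (0.92), S100a16 (0.91) and S100a6 (0.89), and Igfbpl1 to Cd24a (0.94), Nudt11 (0.93) and Camsap1 (0.92). These lists depended on the measure. With Spearman's correlation 0 to 1 of the 3 genes were shared for 7 of the 9 members, 2 for Igfbp3 and 3 for Igfbp4, and over the E16.5 libraries only, 0 to 1 were shared for all 9. No member of the family was among the 3 closest of another.

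Of 43 other genes of the pathway 40 were tested, and Ins1, Ins2 and Igfbp1 were too low. In outer ONL against olfactory nerve 12 of the 40 were called, 3 higher and 9 lower, beside 22.0% of all genes. Against trigeminal nerve 16 were called, 6 higher and 10 lower in outer ONL, beside 25.8%. Olfactory against trigeminal nerve gave 15, 8 higher and 7 lower, beside 23.6%, and inner against outer ONL 14, 3 higher and 11 lower, beside 14.2%. In E13.5 ONL against nerve 16 were called (7 higher, 9 lower) beside 31.6%, and from E11.5 to E13.5 nerve 25 (15 higher, 10 lower) beside 36.6%. From E13.5 to E16.5 nerve 18 were called (10 higher, 8 lower) beside 28.8%, from E13.5 ONL to outer ONL 20 (10 in each direction) beside 41.9%, and in the change of the difference 9 (3 higher, 6 lower) beside 12.4%. By label these early comparisons gave 18, 9, 13, 21 and 12 calls, in the order given. The shares of all genes were then 17.6%, 17.4%, 25.0%, 35.1% and 12.6%. The pathway genes named below are given in the grouping used here only. The median change of the 40 ranged from -0.29 to 0.29 over the 9 comparisons, and that of all genes from -0.05 to 0.05.

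Igf2, which encodes the other IGF ligand, differed in distribution from Igf1. At E16.5 it ran from 2009 to 2217 CPM in trigeminal nerve, from 928 to 1409 in olfactory nerve, from 203 to 569.7 in outer ONL and from 38.1 to 129 in inner ONL, with no overlap between groups. Outer ONL was lower than olfactory nerve by 1.24 on the log2 scale (SE 0.29, adjusted p = 0.00207) and lower than trigeminal nerve by 2.19 (SE 0.31, adjusted p = 2.64e-06). Inner ONL was lower than outer ONL by 2.53 (SE 0.31, adjusted p = 9.54e-07). Igf1 was thus called higher and Igf2 lower in outer ONL than in olfactory nerve. The mesenchyme marker sums, 23488 to 27627 CPM in trigeminal nerve, 9553 to 16190.2 in olfactory nerve, 5732 to 11009.9 in outer ONL and 921 to 2168 in inner ONL, followed the same order of group medians as Igf2. So did the meninges sums, at 1188 to 1398, 722 to 1023, 304 to 591 and 65.4 to 202 CPM. The medians of the Schwann cell sums (2829, 389, 288 and 132 CPM) and of the endothelium sums (953, 809, 618 and 371 CPM) followed this order too. The part of these cells was not tested. From E11.5 to E13.5 nerve Igf2 rose by 1.99 ± 0.28 (adjusted p = 1.86e-06, too small for shared embryos). Igf2r, whose product clears IGF-II, was lower in outer ONL than in trigeminal nerve by 1.76 (SE 0.20) and lower in inner than in outer ONL by 0.96 (SE 0.19).

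Pappa encodes pappalysin, the protease that cuts IGFBP-4, and Stc1 a pappalysin inhibitor. Pappa was highest in the olfactory nerve, with group means of 32.1 CPM at E13.5 and 18.6 at E16.5, against 1.98 and 1.77 in E13.5 ONL and outer ONL and 3.53 in trigeminal nerve. It was lower in outer ONL than in nerve by 3.36 (SE 0.47) and in E13.5 ONL than in nerve by 3.98 (SE 0.42), and higher in olfactory than in trigeminal nerve by 2.39 (SE 0.49). From E11.5 to E13.5 nerve it rose by 2.58 ± 0.41. Stc1 was lower in outer ONL than in nerve by 1.36 (SE 0.33), higher in olfactory than in trigeminal nerve by 1.87 (SE 0.37), and its difference between ONL and nerve changed by -1.53 ± 0.42 between stages. Htra1, a further protease, rose from E13.5 to E16.5 nerve by 2.15 ± 0.46. The largest adjusted p among these 8 values was 0.0125, and those of the early pieces are too small.

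The genes named next act at the receptor or downstream of it. Foxo1, a transcription factor that AKT holds out of the nucleus, was higher in outer ONL than in olfactory nerve by 1.97 ± 0.21 and than in trigeminal nerve by 2.11 ± 0.23, and was already higher in E13.5 ONL than in nerve by 1.08 ± 0.17. The excess grew by 0.89 ± 0.26. Socs2, an inhibitor of cytokine and growth hormone signalling that binds the IGF-I receptor, was higher than in trigeminal nerve in outer ONL (2.24 ± 0.25) and in olfactory nerve (1.91 ± 0.24). It rose by 2.03 ± 0.21 from E11.5 to E13.5 nerve and fell by 0.83 (SE 0.19) to E16.5, while in the ONL it was lower than in nerve at E13.5 by 1.75 (SE 0.19) and rose by 1.26 ± 0.20 to E16.5, a change of the difference of 2.08 ± 0.28. The adaptor Gab1 rose by 1.502 ± 0.20 and Shc1 by 1.37 ± 0.18 from E13.5 ONL to outer ONL. Gab1 also gained on the nerve, by 1.18 ± 0.27. Shc1 was lower in E13.5 ONL than in nerve by 1.06 (SE 0.16), rose from E13.5 to E16.5 nerve by 1.02 ± 0.17 and was lower in inner than in outer ONL by 0.90 (SE 0.19). The largest adjusted p among these values was 0.022, and the early ones are too small.

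The remaining named genes were as follows. In inner against outer ONL Irs1, an adaptor of the receptor, was higher by 1.48 ± 0.41, Mtor by 0.60 ± 0.19 and Pdpk1 by 0.51 ± 0.16. Eif4ebp1, a target of mTOR, was lower than in trigeminal nerve in outer ONL (-2.23 ± 0.21) and in olfactory nerve (-1.46 ± 0.20), and Igf2bp2 (-1.13 ± 0.16) and Grb10 (-1.04 ± 0.18) were lower in olfactory nerve as well. Pik3cb was higher in outer ONL than in trigeminal nerve by 1.31 ± 0.27 and Igf2bp3 higher than in olfactory nerve by 0.44 ± 0.13. The receptor inhibitor Grb14 was higher in E13.5 ONL than in nerve by 1.03 ± 0.19, fell from E11.5 to E13.5 nerve by 1.68 (SE 0.19), rose to E16.5 nerve by 1.36 ± 0.19, and its difference between ONL and nerve changed by -1.52 ± 0.29. The adaptor Grb2 was higher in E13.5 ONL than in nerve by 0.74 ± 0.19.

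Igf2bp3 and Igf2bp1, whose products bind Igf2 mRNA, were both lower at the later stage. Igf2bp3 decreased from E11.5 to E13.5 nerve by 1.52 (SE 0.11) and Pik3r2, a regulatory subunit of PI3K, by 1.18 (SE 0.17). Igf2bp1 fell by 1.12 (SE 0.21) from E13.5 to E16.5 nerve and by 2.05 (SE 0.23) from E13.5 ONL to outer ONL. The PI3K subunit gene Pik3r3 fell in the same comparisons, by 0.70 (SE 0.23) and 1.47 (SE 0.25), and Pik3ca fell in the ONL by 1.28 (SE 0.17), with a change of the difference of -0.84 ± 0.23. The largest adjusted p among the genes of the last 2 paragraphs was 0.0299, and p-values over early pieces are too small because pieces shared embryos.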

How the data were processed

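The authors deposited raw counts per gene for 31 libraries made with SMART-seq V4 and Nextera XT kits. The submitters' processing notes name TopHat2 2.1.0, HTSeq and the mm10 build, and whether strand was used is not given in the sources used here. A row with no gene name was left out. Counts were tested with edgeR 4.0.16 (R 4.3.3; TMM scaling, filterByExpr, robust quasi-likelihood fit of all 31 libraries, Benjamini-Hochberg over 19332 genes), after the code was tested on simulated data. Early libraries were grouped by the study's own group means, matched over 1622 genes, and by label as an alternative. Other scalings and filters, DESeq2 1.42.0, a replicate block and leaving out single libraries were also tried. Same-numbered E16.5 olfactory nerve and outer ONL libraries deviated together (correlations 0.25 to 0.53 over 10718 genes), against -0.41 to 0.38 for unlike numbers. The numbers were therefore taken to pair these groups, though the ranges overlap and the choice was made on the counts tested. Unlike numbers of olfactory and trigeminal nerve reached 0.55. In the other E16.5 pairs not every same-number correlation passed 0.1, which does not show that the numbers are unpaired. Where nothing names separate animals, p-values measure only the spread between pieces. The members, marker lists and pathway list were chosen with earlier results of these data known. Pathway genes were named when called, with at least 10 CPM in the higher group, up to 3 per direction by size of change. The 95% interval was made from the standard error of the fit, which holds the spread between libraries as well as counting error. Floors cover counting error only. Annotation was GENCODE M21, and promoters were from RefSeq.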

Additional observations from a re-analysis of the deposited data

Results flagged for a closer look

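In inner ONL 1 library stood far from the others for Igf1r, with 16.4 CPM (244 counts) against 38.78 to 41.3. In outer ONL the second library stood apart for Igfbpl1, with 2.83 CPM (45 counts) against 0 to 0.183. Of 54 sets of a gene and a group examined, 2 held such a library, and chance alone, at 1 in 20, gives 2.7.

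The difference between ONL and olfactory nerve changed from E13.5 to E16.5 for Igf1, by 1.49 on the log2 scale (adjusted p = 0.00145), and for Igfbp5, by 2.72 (adjusted p = 2.04e-05), by edgeR's interaction test. With the early libraries grouped by label Igf1 gave 4.597 (adjusted p = 0.00132) and Igfbp5 0.52 (adjusted p = 0.608).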

How the results depend on the processing

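Over the 43 pairs of gene and comparison that were called in the fit reported or by label, which leaves few calls to gain, and 865 other fits, 812 kept the direction and the side of the threshold, 45 lost a call, 3 gained one and 5 turned direction. Over all 81 pairs, leaving aside single-library omissions and the fold threshold, 750 tests gained 40 calls and lost 23, of which grouping by label gained 3 and lost 15. All 5 turns came from grouping the early libraries by label: Igf1 (-1.95), Igfbp4 (0.0060) and Igfbpl1 (-0.80) in E13.5 ONL against nerve, and Igf1 (-0.97) and Igfbp7 (-0.053) from E11.5 to E13.5 nerve. By label 2 of 9 genes were called in the first of these comparisons (beside 17.6% of all genes), 3 in the second (17.4%) and 1 in the change of the difference (12.6%). Leaving out the libraries labelled E13.5_ON4 and E13.5_ONL1, an alternative chosen after seeing the data, called 4 in the change of the difference (beside 2215 of 19238 genes), adding Igfbp2 (-1.76) and Igfbp7 (-2.06). For outer ONL against olfactory nerve DESeq2 called 7 beside 23.3% of all genes, and the replicate block called 7 beside 31.4%, against 4 beside 22.0%. For inner against outer ONL the replicate block called 4 (beside 2598 of 15717 genes), where it is not known whether the numbers pair these groups. The 2 groups alone (17.4%) and the E16.5 libraries only (17.6%) each called 4 too, against 1 beside 14.2%. The cause was not tested.

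Leaving out single libraries gave 3 to 6 calls for outer ONL against olfactory nerve (beside 16.7 to 21.3% of all genes), 5 to 6 against trigeminal nerve (19.9 to 25.9%), 1 to 2 for inner against outer ONL (10.4 to 13.8%), 5 to 6 for E13.5 ONL against nerve (28.2 to 30.6%), 5 to 7 from E11.5 to E13.5 nerve (32.9 to 36.3%), 3 to 5 from E13.5 to E16.5 nerve (21.4 to 27.9%) and 2 to 3 in the change of the difference (9.67 to 12.8%). Scaling by total count moved the median of all genes by -0.14 (outer ONL against olfactory nerve), 0.12 (against trigeminal nerve) and 0.25 (olfactory against trigeminal nerve), and the share of higher calls to 34.0%, 62.7% and 77.5% from 46.6%, 52.4% and 55.0%. Under the upper quartile the last was 65.3%. No called member turned direction under any scaling. Low counts limit Igfbpl1 at E16.5 and Igfbp6 at E11.5.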
